A study of Homo sapiens with 15 samples.

Results

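The genes of the NF-κB subunits and of their inhibitors were followed in THP-1 cells stimulated with bacterial extracellular vesicles (BEVs). The 10 genes were chosen by symbol, and each had 1 entry among the 60286 genes of the count table. They are *NFKB1*, *NFKB2*, *REL*, *RELA* and *RELB*, which encode the subunits, *NFKBIA*, *NFKBIB* and *NFKBIE*, which encode cytoplasmic inhibitors, and *NFKBIZ* and *BCL3*, which encode nuclear relatives of the inhibitors. All 10 passed the filter on low counts, which left 17198 genes for testing. *NFKB1*, *NFKB2*, *RELB*, *NFKBIA*, *NFKBIE*, *NFKBIZ* and *BCL3* rose from 3.07-fold to 20.4-fold with every kind of BEV, *NFKBIB* rose about as far as the 2-fold limit, and no change of *RELA* was called.

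RNA of THP-1, a human monocytic leukemia cell line of wild-type genotype, gave 15 sequenced libraries in 5 groups of 3. Control cells received PBS (NC). The other cells received *E. coli* BEVs at 1 μg/mL of protein, isolated by ultracentrifugation (EUC) or by precipitation with epsilon-poly-L-lysine (EPL), or *S. aureus* BEVs at 10 μg/mL, isolated by the same methods (SUC and SPL). Every label gives day 0 as the time, while the study's methods describe an incubation of several hours with the BEVs. Species and dose changed together, so their effects cannot be told apart. The labels number the libraries of a group as replicates without naming separate cultures, so p-values measure the spread between these libraries, which may be technical.

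NF-κB proteins bind DNA as pairs of subunits. In resting monocytes the pairs are held in the cytoplasm by the inhibitors, and signals from receptors of bacterial products lead to the breakdown of the inhibitors and the release of the subunits into the nucleus. Several genes of the subunits and inhibitors are themselves known NF-κB targets, which gives the pathway feedback in either direction. RNA levels do not report the breakdown of the inhibitors or the location of the subunits.

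The promoters are shown because most of these genes moved together. Of the 10 genes, 8 had entries in the RefSeq promoter table of GRCh38.p14, with 14 windows of 250 bases before to 50 bases after a start. *RELB* and *NFKBIE* had none. A kappa B consensus was found on either strand in 9 of the 14 windows and in 5.91% of all 35116 windows. The narrower form GGGANTTNCC, chosen after several forms had been looked at and overlapping the consensus, was found in 8 of the 14 windows and in 1.40% of all windows. It was present in 7 of the 8 genes. The stretches around it are printed 5′ to 3′ on the strand of the gene, with the match in capitals. In *REL*, *NFKBIA* and *BCL3* the form lies on the opposite strand, so the capitals show its reverse complement.
NFKB1 (chr4:102501270-102501358, + strand): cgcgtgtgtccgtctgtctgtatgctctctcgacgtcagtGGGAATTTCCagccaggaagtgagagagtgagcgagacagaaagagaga
NFKB2 (chr10:102394431-102394520, + strand): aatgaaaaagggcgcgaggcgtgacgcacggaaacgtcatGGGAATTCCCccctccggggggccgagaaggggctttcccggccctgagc
NFKB2 (chr10:102395644-102395704, + strand): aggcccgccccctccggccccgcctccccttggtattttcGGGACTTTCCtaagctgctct
REL (chr2:60881488-60881573, + strand): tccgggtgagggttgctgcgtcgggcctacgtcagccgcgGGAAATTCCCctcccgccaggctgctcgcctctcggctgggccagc
NFKBIA (chr14:35404781-35404870, - strand): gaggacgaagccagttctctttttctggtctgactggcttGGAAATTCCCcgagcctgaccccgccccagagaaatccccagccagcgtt
NFKBIB (chr19:38899901-38899968, + strand): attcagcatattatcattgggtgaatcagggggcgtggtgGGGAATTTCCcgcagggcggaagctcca
NFKBIZ (chr3:101827740-101827816, + strand): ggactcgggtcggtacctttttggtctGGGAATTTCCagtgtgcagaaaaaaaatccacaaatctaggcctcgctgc
BCL3 (chr19:44748670-44748719, + strand): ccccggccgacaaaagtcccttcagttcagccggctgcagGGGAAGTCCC
The first base of the match lay at -49 in *NFKB1*, at -107 and -21 in the windows of *NFKB2*, at -46 in *REL*, at -81 in *NFKBIA*, at -28 in *NFKBIB*, at -223 in *NFKBIZ* and at 3 in *BCL3*, where -1 is the base just before the start. The windows of *RELA* held neither form. A match is a description of the letters and not evidence of binding.

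The reads assigned to genes numbered 14399421 to 16637345 per library. All 10 monocytic markers were detected, with a summed level of 1372 to 1392 CPM (counts relative to the TMM-normalized library size) in NC and 1900 to 2442 CPM in the BEV libraries. *SPI1* carried most of this, from a mean of 471 CPM to 960 CPM or more, while *MPO* was called lower in all 4 groups and the median log2 fold change of the list was -0.13 to 0.03. The 5 T cell markers summed to at most 0.460 CPM in any library, with CD3D and CD3G at 0. The 4 B cell markers summed to 1.58 to 5.96 CPM, and the 5 epithelial markers to 1.37 to 4.05 CPM with KRT19 at 0. The libraries EUC3, EPL1 and SUC3 had the lowest balance of long over short genes, without a clear gap to the next library. In them the median log2 level of the longest 20% of genes exceeded that of the shortest 20% by 4.14 to 4.20, against 4.23 to 4.40 in the other libraries. They were singled out with the values of *REL* in view.

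Among the subunits, *NFKB2* changed most. It encodes a precursor that is processed into a DNA-binding subunit and partners RelB in the noncanonical pathway. *NFKB2* was at 29.6, 33.8 and 33.1 CPM in NC. With *E. coli* BEVs it was at 618, 655 and 687 CPM in EUC and at 678, 578 and 532 CPM in EPL. With *S. aureus* BEVs it was at 454, 396 and 459 CPM in SUC and at 533, 505 and 476 CPM in SPL. Every BEV library was thus more than 10 times as high as any NC library. The log2 fold changes were 4.34, 4.21, 3.76 and 3.97 (SE 0.108 to 0.111) for EUC, EPL, SUC and SPL, or 20.3-, 18.5-, 13.5- and 15.7-fold. The largest of the 4 adjusted p was 6.05e-14 by the quasi-likelihood test of edgeR, adjusted over all tested genes by Benjamini-Hochberg. In bulk RNA, the number of responding cells and the RNA per cell cannot be told apart.

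*NFKB1* encodes the precursor of the subunit that most often pairs with RelA. It was at 64.1, 58.3 and 60.7 CPM in NC. It reached 432, 452 and 403 CPM in EUC and 355, 429 and 412 CPM in EPL. It reached 347, 314 and 319 CPM in SUC and 365, 347 and 350 CPM in SPL. No BEV library overlapped with NC. *NFKB1* rose 7.03-, 6.53-, 5.35- and 5.80-fold (log2 2.81, 2.71, 2.42 and 2.54, SE 0.0876 to 0.0888), with adjusted p of at most 8.22e-13 by edgeR.

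*RELB*, whose product carries a transactivation domain and binds chiefly with the products of *NFKB2*, was at 20.9, 21.5 and 24.3 CPM in NC. Its level was 202, 206 and 264 CPM in EUC and 239, 183 and 170 CPM in EPL. In SUC it was 166, 178 and 221 CPM, and in SPL 186, 194 and 180 CPM. All BEV libraries lay well above NC, and all pairs of BEV groups overlapped except EUC and SPL. The rise was 10.1-, 8.87-, 8.45- and 8.40-fold (log2 3.33, 3.15, 3.08 and 3.07, SE 0.149 to 0.151), with adjusted p of at most 4.04e-11 by edgeR.

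*RELA* encodes the main activating subunit of the canonical pathway. Its level was 98.0, 102 and 98.8 CPM in NC, 107, 103 and 92.0 CPM in EUC, and 105, 104 and 101 CPM in EPL. It was 107, 94.1 and 91.2 CPM in SUC and 111, 109 and 106 CPM in SPL. The groups lay close together, and NC overlapped with EUC, EPL and SUC. The log2 fold changes were 0.01, 0.05, -0.03 and 0.12, and their 95% confidence intervals reached from -0.20 to 0.29 at the outermost. The smallest adjusted p was 0.271 by edgeR, so no change of *RELA* was called.

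**Figure D1:**
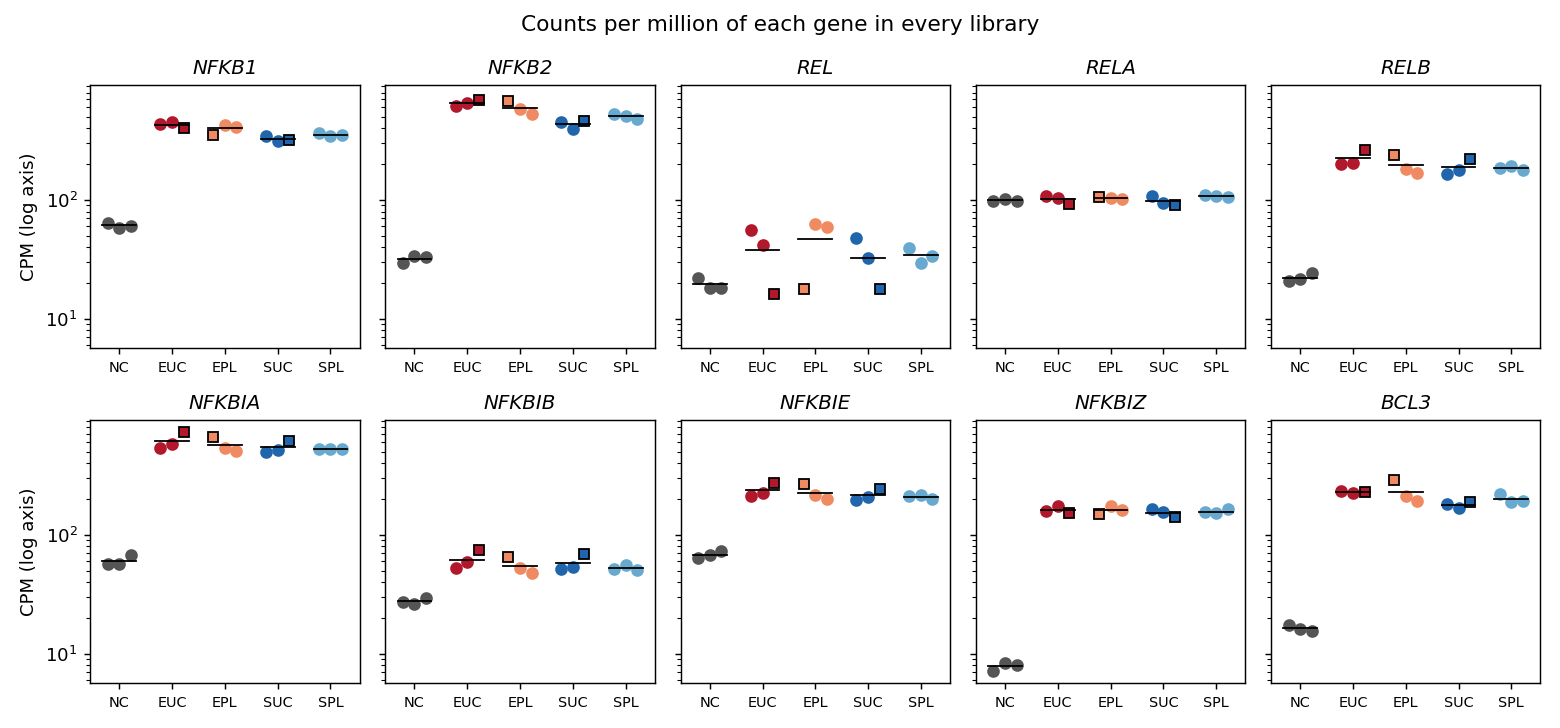
Level of each gene in CPM (log axis) in every library, by group on the x axis. Bars are group means, and black-edged squares are EUC3, EPL1 and SUC3. *RELA* stays between 91.2 and 111 CPM, *NFKBIZ* goes from 7.17 to 8.41 CPM in NC to 141 CPM or more with BEVs, and *REL* lies below the NC values in the squares.

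*REL* encodes c-Rel, an activating subunit prominent in blood cells. It was at 22.1, 18.2 and 18.2 CPM in NC. It was at 56.4, 41.7 and 16.2 CPM in EUC and at 17.8, 63.2 and 59.3 CPM in EPL. It was at 47.5, 32.6 and 17.8 CPM in SUC and at 39.2, 29.4 and 34.1 CPM in SPL. In EUC, EPL and SUC, 2 libraries were above NC and 1 was below its lowest value, while all SPL libraries were above NC. The log2 fold changes were 0.97 (SE 0.437), 1.26 (SE 0.436), 0.74 (SE 0.439) and 0.81 (SE 0.438), with adjusted p of 0.0891, 0.0288, 0.224 and 0.174 by edgeR, so *REL* was not called. The call was gained in EUC without EUC replicate 3 (log2 1.33, adjusted p = 0.00928 by edgeR), and in EPL without EPL replicate 1 (log2 1.65, adjusted p = 0.00243) or without EUC replicate 3 (log2 1.26, adjusted p = 0.00682). In a fit of only SPL and NC the adjusted p was 3.78e-09 by edgeR at log2 0.82, below the 2-fold limit.

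The low *REL* values came from EUC3, EPL1 and SUC3. Against the mean of the other 2 libraries of the group, log2 *REL* was different by -1.57, -1.77 and -1.14 there. The median gene of the longest 20%, with at least 8287 exon bases, differed by -0.24, -0.20 and -0.19, and that of the shortest 20%, with at most 2080, by 0.16, 0.13 and 0.16. Among 9346 genes with a mean of at least 10 CPM, 11, 1 and 9 were as low as *REL*, itself included. In all, 9 of these genes were at least 2-fold lower in each of the 3 libraries. They were named after their values were seen and include *REL* (17129 merged exon bases), *MICAL3* (22444), *KMT2D* (25436) and *UBR4* (24661), but also *ERV3-1* (5027).

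Without these 3 libraries the log2 fold changes of *REL* were 1.33 (SE 0.137), 1.66 (SE 0.134), 1.04 (SE 0.140) and 0.82 (SE 0.129). As the choice of libraries used the *REL* values, no p is given for *REL* in this fit. A correction for gene length and GC content left *REL* uncalled at log2 0.86, 1.05, 0.64 and 0.74. An annotated lncRNA on the same strand shares 5702 exon bases with *REL*, 33.3% of its merged exons, and is listed at 0 in all 15 libraries. The part of the libraries in the result was not tested further.

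The same 3 libraries held the highest values of 4 shorter genes in their groups. *RELB* was higher there by log2 0.37, 0.44 and 0.36, *NFKBIA* by 0.40, 0.33 and 0.28, *NFKBIB* by 0.42, 0.37 and 0.39, and *NFKBIE* by 0.32, 0.35 and 0.24. *BCL3*, also short, differed by -0.01, 0.51 and 0.12. *NFKB1*, with 15679 merged exon bases, differed by -0.13, -0.24 and -0.05. These shifts are small beside the rises against NC, except for *NFKBIB*.

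**Figure D2:**
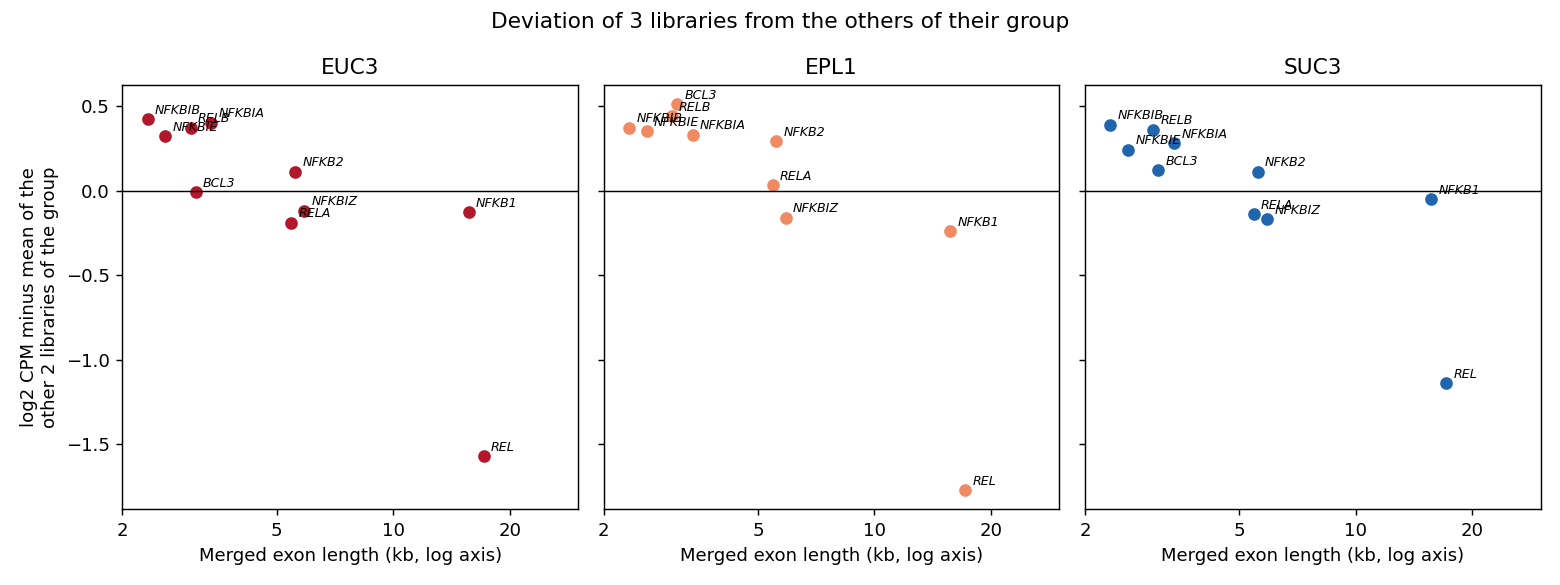
Log2 CPM of each gene in EUC3, EPL1 and SUC3 minus the mean of the other 2 libraries of the group, against merged exon length in kb (log axis). *REL* lies lowest at -1.57, -1.77 and -1.14, and *NFKB1*, nearly as long by merged exons, lies between -0.24 and -0.05. By canonical transcript *NFKB1* is much shorter, with 4055 bases against 11108 for *REL*.

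Of the cytoplasmic inhibitors, *NFKBIA* rose most. It encodes IκBα, which is resynthesised after its breakdown and ends the nuclear phase of NF-κB. *NFKBIA* was at 57.1, 56.7 and 66.9 CPM in NC. It was at 533, 579 and 735 CPM in EUC and at 660, 539 and 509 CPM in EPL. It was at 495, 516 and 615 CPM in SUC and at 525, 530 and 524 CPM in SPL. All BEV libraries lay above NC, and EUC lay just above SPL without overlap. The rise was 8.74-fold to 10.2-fold (log2 3.35, 3.24, 3.17 and 3.13, SE 0.135 to 0.137), with adjusted p of at most 8.03e-12 by edgeR.

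*NFKBIE* encodes IκBε. Its level was 63.9, 66.9 and 73.2 CPM in NC, 211, 225 and 272 CPM in EUC, and 265, 214 and 200 CPM in EPL. It was 197, 208 and 240 CPM in SUC and 211, 216 and 199 CPM in SPL. No BEV library overlapped with NC. *NFKBIE* rose 3.47-, 3.33-, 3.16- and 3.07-fold (log2 1.80, 1.74, 1.66 and 1.62, SE 0.119), with adjusted p of at most 8.46e-09 by edgeR.

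*NFKBIB* encodes IκBβ. It was at 27.1, 26.2 and 29.6 CPM in NC, at 52.2, 58.5 and 73.9 CPM in EUC, and at 64.9, 52.2 and 48.1 CPM in EPL. It was at 51.6, 53.5 and 69.0 CPM in SUC and at 51.9, 55.5 and 50.3 CPM in SPL. Again no BEV library overlapped with NC. The log2 fold changes of 1.15, 0.99, 1.07 and 0.93 (SE 0.142) all had adjusted p of at most 6.08e-05 by edgeR, but only EUC and SUC passed the 2-fold limit. Their intervals overlap, from 0.63 to 1.45 in all, so the groups are not shown to differ. Without EUC3, EPL1 and SUC3 the values were 1.00, 0.86, 0.93 and 0.93, and *NFKBIB* was no longer called in EUC, where it fell just short of 2-fold, or in SUC. No count of called genes is given for this fit, as the choice of libraries used the *REL* values. The call of *NFKBIB* was also lost in EUC without EUC replicate 3 alone, and in SUC without SUC replicate 3 alone.

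The nuclear proteins had large changes from low levels. *NFKBIZ* encodes IκBζ, a nuclear cofactor needed for a set of secondary response genes. It was at 7.17, 8.41 and 8.05 CPM in NC. It was at 159, 173 and 152 CPM in EUC and at 149, 173 and 161 CPM in EPL. It was at 165, 154 and 141 CPM in SUC and at 154, 151 and 163 CPM in SPL. The 4 BEV groups covered one narrow range. *NFKBIZ* rose 20.4-, 20.4-, 19.4- and 19.8-fold (log2 4.35, 4.35, 4.28 and 4.30, SE 0.103), with adjusted p of at most 9.40e-15 by edgeR.

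*BCL3* encodes a nuclear protein that binds pairs made of the products of *NFKB1* or *NFKB2*. It was at 17.3, 16.1 and 15.6 CPM in NC. It was at 233, 224 and 227 CPM in EUC and at 287, 210 and 192 CPM in EPL. It was at 181, 167 and 189 CPM in SUC and at 218, 189 and 191 CPM in SPL. The BEV groups lay far above NC. The rise was at least 10.9-fold in each group (log2 3.80, 3.81, 3.45 and 3.61, SE 0.133 to 0.135), with adjusted p of at most 1.94e-12 by edgeR.

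**Figure D3:**
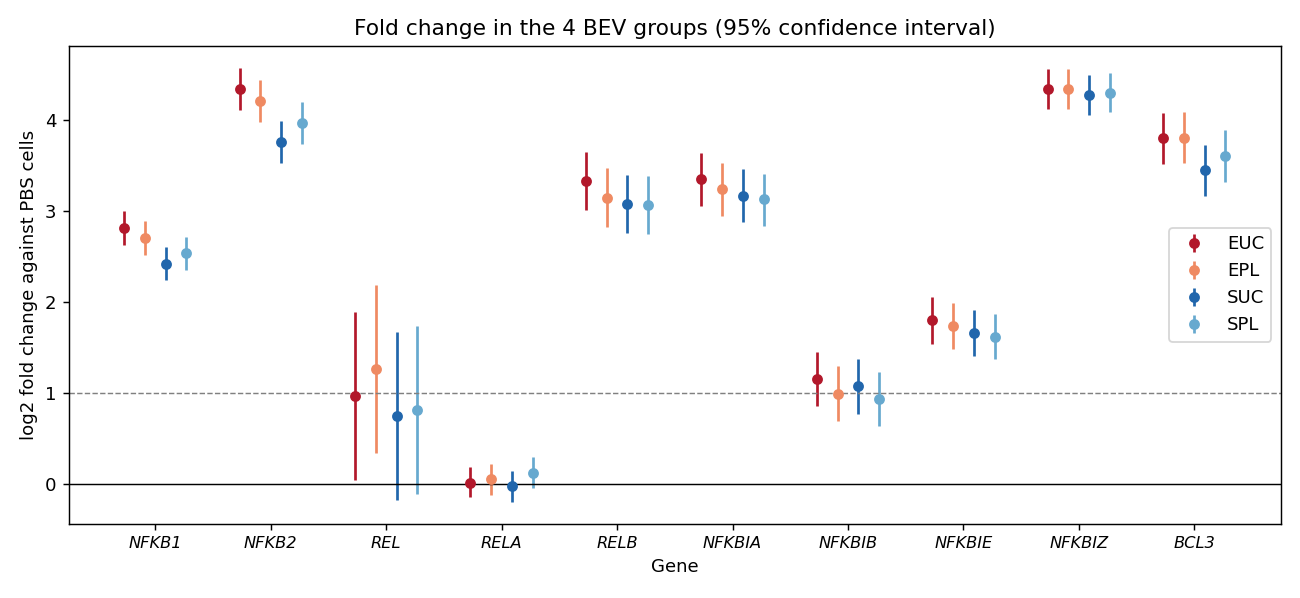
Log2 fold change of each gene against NC in the 4 BEV groups, with 95% confidence intervals from edgeR. The dashed line marks 2-fold. *NFKB2* and *NFKBIZ* reach 4.34 and 4.35 in EUC, *RELA* lies at 0, and the wide intervals belong to *REL*.

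Called by edgeR at 0.01 for the adjusted p together with a 2-fold change, 8, 7, 8 and 7 of the 10 genes were higher in EUC, EPL, SUC and SPL. Of all tested genes, 9.43%, 9.38%, 6.82% and 7.76% were called higher by this rule. By adjusted p alone 8 of the 10 were higher in each group, against 16.5%, 16.0%, 12.4% and 13.3% of all genes. None was called lower, against 5.75%, 5.15%, 3.06% and 3.70% of all genes. The median log2 fold change of the 10 genes was 3.07, 2.93, 2.75 and 2.80, and that of all tested genes lay between -0.01 and 0.01. These 4 comparisons share the NC libraries and are not independent of one another.

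Levels of different genes were compared per length (CPM per kb of merged exons). The summed level of the 5 subunits was 35.6 to 37.1 CPM per kb in the NC libraries and 169 to 255 in the BEV libraries. *RELA* made up 48.8% to 51.0% of it in NC and 6.62% to 10.8% with BEVs. *NFKB2* made up 14.9% to 16.5% in NC and 41.9% to 49.7% with BEVs. The ranges of *RELA* and of *NFKB2* did not overlap between NC and BEV libraries. The share of *RELB* went from 19.5% to 21.9% in NC to 28.3% to 38.0%, and *NFKB1* made up 10.1% to 11.5% in NC and 9.29% to 13.1% with BEVs. *REL* made up 2.87% to 3.62% in NC and 0.372% to 1.73% with BEVs. With the canonical transcript as the length, *RELA* still went from 50.6% to 52.5% in NC to 7.58% to 11.9%, and *NFKB2* from 12.9% to 14.5% to 40.1% to 48.7%. On that scale *NFKB1* made up 18.6% to 20.9% in NC and *RELB* 12.2% to 13.9%, so that their order in NC turned. These shares describe RNA and were not tested.

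**Figure D4:**
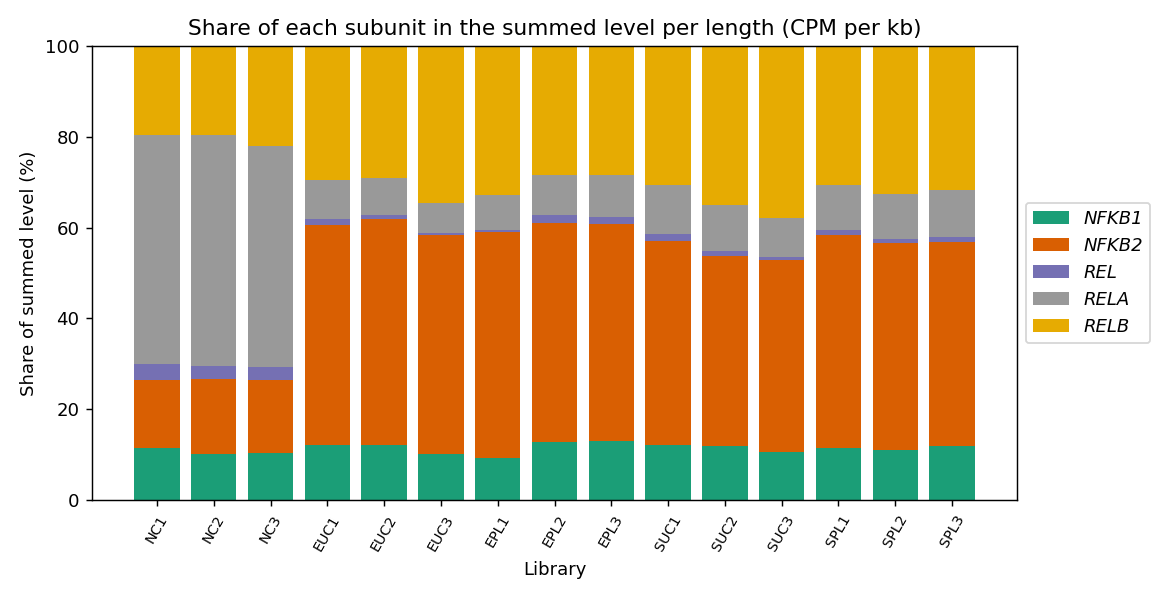
Share of each subunit in the summed level of the 5 subunits (CPM per kb of merged exons, in %), 1 bar per library. *RELA* covers 48.8% to 51.0% in the NC libraries and at most 10.8% in the BEV libraries, and *NFKB2* at least 41.9% there.

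The summed level of the 5 inhibitors, *NFKBIZ* and *BCL3* included, relative to the 5 subunits was 1.72 in NC and 1.67, 1.73, 1.94 and 1.77 in EUC, EPL, SUC and SPL. With the length of the longest transcript the NC libraries lay at 1.15 to 1.27 and the BEV libraries at 1.29 to 1.63, so the direction of this ratio depends on the length used. For the cytoplasmic inhibitors alone the ratio was 1.53 in NC and 1.24, 1.27, 1.48 and 1.31. The NC libraries (1.47 to 1.64) and BEV libraries (1.14 to 1.57) overlapped. With the canonical transcript it was 1.18 in NC and 1.17, 1.18, 1.39 and 1.23, so it also depends on the length. Within NC the order of levels per merged exon length was *NFKBIE* (26.3 CPM per kb, SD 1.84), *RELA* (18.3, SD 0.406), *NFKBIA* (17.7, SD 1.70) and *NFKBIB* (11.9, SD 0.762). *RELA* and *NFKBIA* did not differ beyond their spread. With the canonical transcript the order turned, with *RELA* at 39.6, *NFKBIA* at 38.6 and *NFKBIE* at 29.0. In EUC *NFKBIA* came first at 181 (SD 31.3), followed by *NFKB2* at 117 (SD 6.17).

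The study asked whether the isolation method changes the response of the cells. Comparing EPL with EUC, none of the 10 genes was called by edgeR, none had an unadjusted p of at most 0.05, and DESeq2 called 0. Of all genes 0% were called. The 95% confidence intervals of the log2 difference lay within -0.47 to 0.26 for the 9 genes other than *REL*, whose interval was -0.60 to 1.19. Comparing SPL with SUC, edgeR and DESeq2 again called 0 of the 10, against 0.00581% of all genes. *NFKB2* was the single gene with an unadjusted p of at most 0.05 there (log2 0.21, interval 0.01 to 0.41, adjusted p = 0.827 by edgeR). The difference of methods was not called as differing between species for any of the 10 genes by edgeR or DESeq2. Of all genes, 0% were called by edgeR. *NFKB2* was the 1 gene of the 10 at an unadjusted p of at most 0.05 (log2 -0.34, interval -0.63 to -0.06, unadjusted p = 0.0210 by edgeR). A missed threshold does not show that the methods act alike.

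*E. coli* BEVs at 1 μg/mL and *S. aureus* BEVs at 10 μg/mL differed in *NFKB2*. Its level was 532 to 687 CPM in the 6 *E. coli* libraries and 396 to 533 CPM in the 6 *S. aureus* libraries, with an overlap of 1 library on each side. The log2 difference over both methods was 0.41 (SE 0.0673, interval 0.27 to 0.55, adjusted p = 7.63e-04 by edgeR). It was 0.58 between EUC and SUC (adjusted p = 0.00117 by edgeR) and 0.24 between EPL and SPL (adjusted p = 0.430 by edgeR). Between EUC and SUC, 0.01 was no longer passed without SUC replicate 2 (log2 0.51, adjusted p = 0.0138 by edgeR) and in a fit of only the groups compared (adjusted p = 0.0330 by edgeR).

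*NFKB1* differed by log2 0.28 (SE 0.0582, interval 0.16 to 0.41, adjusted p = 0.00527 by edgeR), with 355 to 452 CPM against 314 to 365 CPM. The adjusted p no longer passed 0.01 when any of 10 single libraries was left out, with values of up to 0.0275 by edgeR and log2 0.25 to 0.32. It was 0.39 between EUC and SUC (adjusted p = 0.00822 by edgeR) and 0.17 between EPL and SPL (adjusted p = 0.601 by edgeR). Between EUC and SUC, *NFKB1* no longer passed 0.01 in 13 of 15 such fits.

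By adjusted p alone 2 of the 10 genes differed over both methods, against 3.87% of all genes in either direction. The count was 2 between EUC and SUC (2.49% of all genes) and 0 between EPL and SPL (0.384% of all genes), where 1 of the 10 had an unadjusted p of at most 0.05. No gene of the 10 also reached 2-fold over both methods, against 0.686% of all genes in either direction. *BCL3* came next at log2 0.28 (interval 0.10 to 0.45, adjusted p = 0.0560 by edgeR). It passed 0.01 with the length and GC correction, which was added after seeing the data (log2 0.23, adjusted p = 0.00629 by edgeR). Without EUC3, EPL1 and SUC3 the difference in *BCL3* was log2 0.20, and EPL1 held its highest level (287 CPM). As these libraries were singled out after seeing the data, no p is given for *BCL3* in that fit. Between EUC and SUC, *BCL3* had log2 0.35 (adjusted p = 0.116 by edgeR) and without the 3 libraries 0.38. The difference in *REL* was log2 0.34 over both methods (interval -0.30 to 0.97, adjusted p = 0.677 by edgeR). Between EPL and SPL it was 0.45 (interval -0.44 to 1.35, adjusted p = 0.910 by edgeR). Without the 3 libraries, chosen with *REL* in view, these differences were 0.56 and 0.84. The latter leaves out EPL1, where *REL* was low, and no SPL library, so its rise follows from the choice. For *NFKBIZ* the difference was 0.06 (interval -0.07 to 0.19) and for *RELA* -0.01 (interval -0.13 to 0.11).

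**Figure D5:**
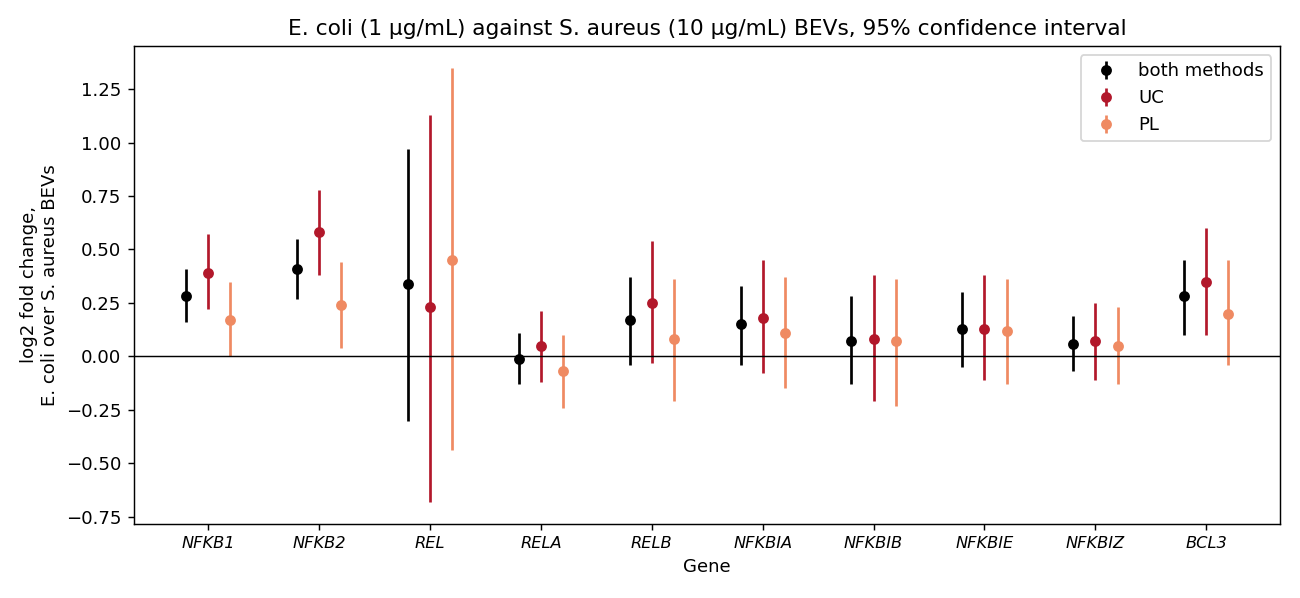
Log2 difference of each gene between *E. coli* BEVs (1 μg/mL) and *S. aureus* BEVs (10 μg/mL), with 95% confidence intervals from edgeR, over both methods (black), for UC (red) and for PL (orange). *NFKB2* and *NFKB1* lie above 0 at 0.41 and 0.28 over both methods, and *RELA* lies at -0.01.

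The other genes of the pathway moved less evenly. Of 16 kinases and adaptors of the pathway, some of which are known to restrain it, 5, 5, 4 and 4 were called higher in EUC, EPL, SUC and SPL and 0 lower. Of all tested genes, 9.43%, 9.38%, 6.82% and 7.76% were called higher and 5.75%, 5.15%, 3.06% and 3.70% lower. The median log2 fold change of the 16 was 0.52, 0.57, 0.40 and 0.51. The genes of the classical IκB kinase complex, *CHUK*, *IKBKB* and *IKBKG*, were not called. *CHUK* had log2 fold changes of 0.34 to 0.52, *IKBKB* of -0.07 to 0.05 and *IKBKG* of 0.38 to 0.56. Below the 2-fold limit, *CHUK* had adjusted p of at most 0.00865 by edgeR in every BEV group. That of *IKBKG* was at most 0.00225 in EUC, EPL and SPL and 0.0230 in SUC. *MAP3K14*, the kinase of the noncanonical pathway, had 0.88, 0.92, 0.41 and 0.82. *MAP3K8* rose by 2.50, 2.24, 2.35 and 2.63, *IKBKE* by 1.97 to 2.20, *TANK* by 1.03 to 1.35 and *TRAF3* by 1.06 to 1.14. *TAB2* rose by 1.14 and 1.16 in EUC and EPL and had 0.88 and 0.97 in SUC and SPL.

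None of 8 genes for the ubiquitin ligase that marks the inhibitors and for ubiquitin-conjugating enzymes (*UBE2D1*, *UBE2D2* and *UBE2D3*) was called in any group by edgeR. The median log2 fold change of the 8 was 0.26, 0.27, 0.24 and 0.12 in EUC, EPL, SUC and SPL. The largest log2 fold changes were those of *UBE2D1* (0.71 to 0.90), *UBE2D3* (0.40 to 0.51) and *SKP1* (0.39 to 0.56). Below the 2-fold limit, *UBE2D1* had adjusted p of at most 2.61e-04 and *UBE2D3* of at most 0.00209 by edgeR in every BEV group. *SKP1* passed 0.01 in EUC only (adjusted p = 0.00531 by edgeR). Of 10 genes for other proteins acting on the subunits, 2, 2, 1 and 2 were called higher. Of all tested genes, 9.43%, 9.38%, 6.82% and 7.76% were called higher. The median log2 fold change of this list was 0.14, 0.14, 0.08 and 0.08. *AKIRIN2* rose in all 4 groups by 1.03 to 1.46, and *NFKBID*, a further nuclear relative of the inhibitors, by 1.12, 1.09 and 1.17 in EUC, EPL and SPL with 0.98 in SUC. *PDLIM2*, an adaptor known to promote the breakdown of nuclear RelA, had -0.67 to -0.84, short of the 2-fold limit. Its adjusted p was at most 8.54e-05 by edgeR in every BEV group. Of 30 known NF-κB target genes, 26 were called higher in each group, with median log2 fold changes of 5.12, 4.73, 4.62 and 4.77. *CXCL8*, a neutrophil attractant, was at 7.38 CPM (SD 0.467) in NC and at 1959 (SD 355), 1628 (SD 45.6), 1112 (SD 162) and 1221 CPM (SD 99.6) in EUC, EPL, SUC and SPL. *IL1B* was at 2.15 CPM (SD 0.587) in NC and at 1733 (SD 234), 1351 (SD 67.9), 599 (SD 88.7) and 860 CPM (SD 78.6). *CCL4* went from 0.307 CPM (SD 0.136) in NC to group means of 194 to 310 CPM, and *BIRC3* from 0.179 CPM (SD 0.115) to 28.6 to 43.2 CPM. *BIRC2*, *NLRP3*, *GADD45B* and *PLAU* were the targets not called in any group.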

How the data were processed

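The titles of the THP-1 libraries gave their groups. The authors deposited whole-number read counts per Ensembl gene without normalization. The submitters' processing notes name FastQC 0.11.5, HISAT2 2.1.0, StringTie 1.3.3b, DESeq 1.28.0, featureCounts and hg38, without roles. How strand was handled and which annotation was counted is not given in the sources used here. In the table there were 0 entries naming no gene and 0 columns were unused.

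Counts were analysed with edgeR 4.0.16 in R 4.3.3 (filterByExpr, TMM, glmQLFit and glmQLFTest) in 1 model of all 15 libraries by group, and p-values were adjusted by Benjamini-Hochberg over 17198 genes. Calls needed an adjusted p no larger than 0.01 together with a 2-fold change. DESeq2 1.42.0, other filters, scalings, a replicate block and leaving out each library were alternatives, and leaving out EUC3, EPL1 and SUC3 and a length and GC correction were added after seeing the data. Scripts were tested on simulated data. CPM used TMM-normalized library sizes. Totals of 14399421 to 16637345 counts set the precision. Lengths and positions come from GENCODE 44.

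The genes and lists were chosen with earlier results of these data known. Besides the 10 genes, the text names CHUK, IKBKB, IKBKG, MAP3K14 and NFKBID, up to 4 genes per list with the largest mean change among those with a mean of at least 1 CPM, and the gene nearest to each of the 10 in fold changes, of which that for NFKB1 is not reported here. TAB2 was named outside this rule, and targets not called were named after their values were seen.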

Additional observations from a re-analysis of the deposited data

Results flagged for a closer look

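In the edgeR test of the difference itself, 2 of the 10 genes differed between *E. coli* and *S. aureus* BEVs by adjusted p alone. Of all genes, 3.87% did so, and neither of the 2 reached 2-fold. *NFKB2* was higher with *E. coli* BEVs by 0.41 on the log2 scale and *NFKB1* by 0.28. Between EPL and SPL they had adjusted p of 0.430 and 0.601 by edgeR. *NFKB1* over both methods no longer passed 0.01 when any of 10 single libraries was left out. The doses were 1 and 10 μg/mL, so species and dose cannot be told apart.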

How the results depend on the processing

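Over all alternatives, 2400 fold changes of the 10 genes were recomputed. Of these, 2351 kept their side of an adjusted p of 0.01 whatever their fold, 31 no longer passed it and 18 newly passed it. The direction turned in 0 of those that passed 0.01 in the main fit. Among those that had not passed it, some changed sign, such as *RELA* in EUC, at log2 0.01 and at -0.14 with library totals only. Without the 2-fold limit, 2 of the 10 genes were called between *E. coli* and *S. aureus* BEVs, against 0 with it. Leaving out single libraries gave 8, 7 to 8, 7 to 8 and 7 called genes in EUC, EPL, SUC and SPL. The called genes were not always the same. Without EUC replicate 3, *REL* was gained in EUC and *NFKBIB* lost, just short of 2-fold at log2 1.00. Without SUC replicate 3, *NFKBIB* was lost in SUC (log2 0.93). *REL* was not called in any group in the main edgeR fit or by DESeq2. Without a filter on low counts it had adjusted p of at most 5.13e-08 by edgeR in every BEV group. At log2 1.26 it was then called in EPL, but these very small values were not resolved. *REL* was also called in EUC without EUC replicate 3 (log2 1.33, adjusted p = 0.00928 by edgeR). In EPL it was called without EPL replicate 1 (log2 1.65, adjusted p = 0.00243 by edgeR) or without EUC replicate 3 (log2 1.26, adjusted p = 0.00682 by edgeR). The cause was not tested. With a replicate block, *NFKB1* between EUC and SUC had log2 0.39 and no longer passed 0.01 (adjusted p = 0.0132 by edgeR). Of 30 same-numbered pairs of libraries, 7 had a correlation of deviations over 0.1 (range -0.452 to 0.525). Pairs with different numbers were not compared, so whether the numbers pair the libraries was not decided. The block moved the calls over all genes from 2610 to 2553 in EUC.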

Other observations

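The gene nearest to a subunit or inhibitor gene was sought among 9336 tested genes with a mean of at least 10 CPM, by the root mean square difference of the 4 log2 fold changes against NC, which share the NC libraries. *NFKB2* was nearest to *PLEKHO1* (0.0191), with 14 genes within 0.25. *NFKBIZ* was nearest to *CHST2* (0.0646), with 10 genes within 0.25, and *BCL3* to *OAS1* (0.0517), with 25. *RELB* was nearest to *PLA2G4C* (0.0533), *NFKBIA* to *DAPK2* (0.0653), *NFKBIE* to *BMT2* (0.0543), *NFKBIB* to *TMEM45A* (0.0465) and *REL* to *XRN1* (0.0828). *RELA* was nearest to *DPF2* (0.00665) and had 4389 genes within 0.25.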
